A study of Mus musculus with 16 samples.

Results

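CD301b+ mature dendritic cells (DC) of the liver-draining lymph nodes were taken from 3 CITE-seq libraries, in which the RNA of single cells was read together with DNA-tagged antibodies against 11 surface proteins. A mature DC was a barcode with at least 1000 RNA UMIs (unique molecular identifiers, the molecules counted), 500 genes and at most 10% mitochondrial UMIs. It carried at least 1 UMI each of Ccr7 and Fscn1 and no UMI of Cd3e or Cd79a. A mature DC was called CD301b+ when the CD301b tag made up at least 10% of its antibody UMIs and the XCR1 tag less than 10%. By this rule 328 of 1668 mature DC were CD301b+, out of 19543 barcodes in the 3 libraries and 53595 in the 8 libraries of the whole series. Another 282 mature DC were XCR1+ and 1057 passed neither share, and 1 cell at D19 passed both and was set aside.

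The mice were C57BL/6J animals left untreated (D0) or fed chow with 0.1% DDC, a diet that causes cholestatic liver injury, for 5 (D5) or 19 days (D19). The D5 library is called D6 in its own description. Hepatoduodenal and celiac lymph nodes were sorted into fractions of living cells, including Itgax+ and Itgax- leukocytes and Pdpn+ stroma, which were mixed at equal ratios, so that the sort as well as the tissue sets how many cells of a type a library holds. Each day is 1 library, the number of mice in it is not given in the sources used here, and there is thus no test between days. The libraries held 6542 barcodes and 45317389 RNA UMIs at D0, 6248 and 47653941 at D5, and 6753 and 32013882 at D19. Between 9 and 12 cell barcodes were shared by any pair of libraries.

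Conventional DC fall into cDC1, which carry XCR1 and are known for cross-presentation to CD8 T cells, and cDC2, which carry CD11b and present to CD4 T cells. CD301b, a C-type lectin encoded by Mgl2, marks a subset of cDC2 that is abundant in barrier tissues and liver. On maturation DC switch on CCR7, the receptor that guides them along CCL21 into the lymph node, and FSCN1, an actin-bundling protein, while the RNA of many subset markers is lost. Surface protein outlasts the RNA, which is why the antibody tags were used to tell the subsets apart.

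Of the 3 tags shown, CD301b and XCR1 set the subsets, so the subset counts rest on reading them. CD11b entered the rule only through the total of antibody UMIs. Each is the 15-base barcode of its antibody, 5′ to 3′ as deposited, and none is a genomic sequence.
CD301b: cttgccttgcgattt
XCR1: tccattacccacgtt
CD11b: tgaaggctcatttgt

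The CD301b tag defined the cells and its values are given as a description. Its median share of antibody UMIs in CD301b+ mature DC was 23.2% at D0, 30.3% at D5 and 32.3% at D19, against 0.47%, 0.31% and 0.92% in mature DC that were neither CD301b+ nor XCR1+. The lowest shares inside the rule were 10.1%, 10.6% and 10.03% and the highest just outside it 8.85%, 9.96% and 9.94%. Of the 34, 48 and 246 CD301b+ cells, 4, 2 and 26 lay between 10 and 12%, and 3, 2 and 24 mature DC outside the rule lay between 8 and 10%. Cells thus lay on both sides of the edge on each day, and the edge sets their number in part. The median CD301b+ cell carried 257, 554 and 287.5 CD301b UMIs.

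**Figure D1:**
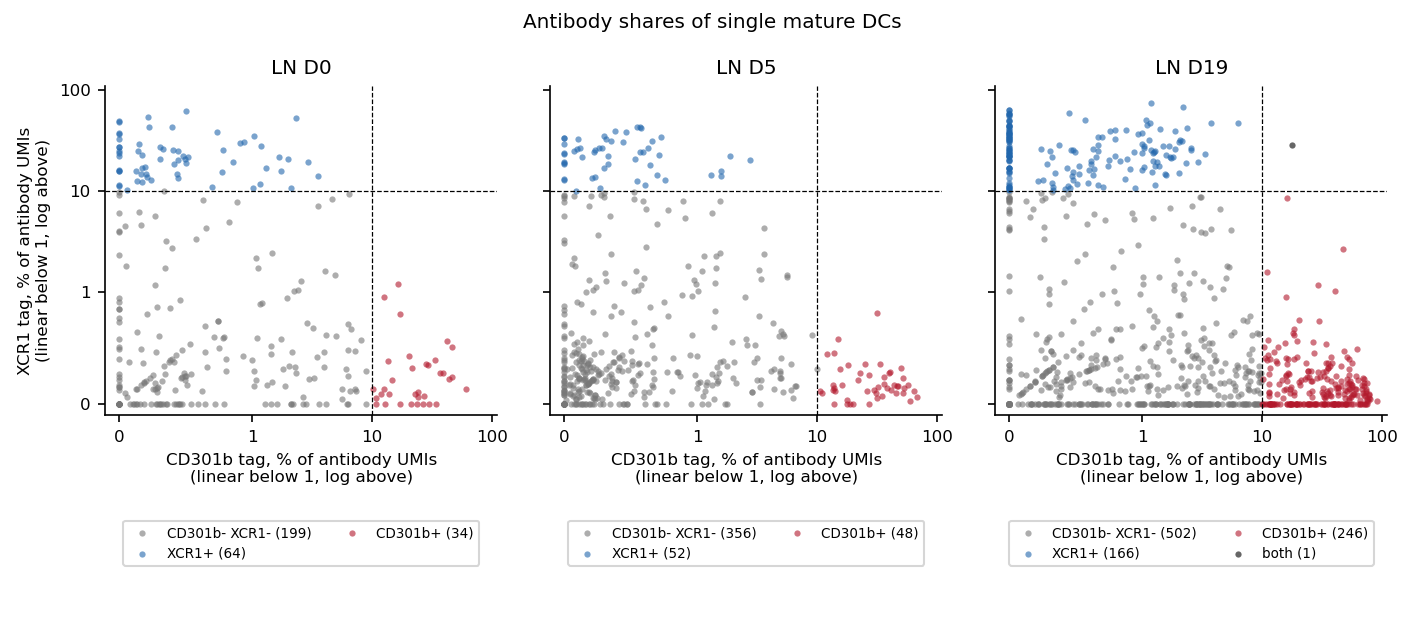
CD301b tag share (percent of antibody UMIs) against XCR1 tag share for every mature DC of the D0, D5 and D19 lymph node libraries, with the 10% edges of the rule as lines. CD301b+ cells (34, 48 and 246) lie along one axis and XCR1+ cells (64, 52 and 166) along the other, with 1 cell past both edges.

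CD11b, the integrin that marks cDC2, was the most abundant tag on CD301b+ mature DC. Its median share was 54.6%, 53.7% and 52.1% at D0, D5 and D19. Since the CD301b tag takes part of the same total, shares were also taken over the 9 tags that the rule did not use, where CD11b held 72.5%, 78.1% and 80.2% in CD301b+ cells, 46.0%, 56.5% and 74.6% in neither-cells and 5.3%, 11.8% and 12.7% in XCR1+ cells. CD11b made up at least 20% of all antibody UMIs in 94.1%, 97.9% and 95.9% of CD301b+ cells. The same was true of 72.4%, 74.2% and 89.8% of neither-cells and of 4.69%, 19.2% and 14.5% of XCR1+ cells. CD301b+ cells were therefore nearly all CD11b-bearing on every day, while the neither-cells held a CD11b-poor remainder that was smaller at D19.

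Other tags took small shares on CD301b+ mature DC, and were set beside the share in free antibody, read from barcodes with at most 100 RNA UMIs. CD8a had median shares of 4.91%, 3.04% and 1.73% in CD301b+ cells and 42.7%, 24.6% and 20.8% in XCR1+ cells, against 37.5%, 26.5% and 22.7% in free antibody, so the XCR1+ shares at D5 and D19 were not above it. CD80, a ligand of CD28, had shares of 6.57%, 4.95% and 4.53% in CD301b+ cells, 9.43%, 13.4% and 10.2% in neither-cells and 13.6%, 18.8% and 20.5% in XCR1+ cells, all below its 21.6%, 22.3% and 26.9% of free antibody. In UMIs the order of CD301b+ and XCR1+ cells was the opposite, with CD80 medians of 71, 107.5 and 45 in CD301b+ cells and 47, 82.5 and 30.5 in XCR1+ cells, so no order of CD80 is read from these tags. The CD197 tag, which is the CCR7 protein, held 0.44%, 0.31% and 0.19% in CD301b+ cells and 1.92%, 2.32% and 1.99% in free antibody. Every cell carried Ccr7 RNA by rule. CD11b and CD301b took most of the total in CD301b+ cells, which lowers the share of every other tag. Whether CD197 was above background thus cannot be read from its share. CD11b and CD301b had free-antibody shares of at most 7.89% and 3.19%, far below those of the CD301b+ cells. Total antibody UMIs differed with the subset, with medians of 1123, 2554 and 1032 in CD301b+ cells, 734, 1206 and 556.5 in neither-cells and 383, 406.5 and 185.5 in XCR1+ cells.

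CD301b+ cells were 34 of 297 mature DC at D0, 48 of 456 at D5 and 246 of 915 at D19. These are 11.4% (95% Clopper-Pearson interval 8.06 to 15.6), 10.5% (7.86 to 13.7) and 26.9% (24.0 to 29.9), with intervals that cover counting error only. The D19 share lay above both earlier intervals, and the D0 and D5 intervals overlapped. Among mature DC that were not XCR1+ the share was 14.6%, 11.9% and 32.9%. With both edges moved to 20% the D19 share stayed the highest, at 7.07%, 6.80% and 18.3%, and with both edges at 5% it was 17.2%, 13.2% and 34.5%. With 1 library per day the difference has no replicate check, and the mixing of sorted fractions applies to these shares too. Outside mature DC, 0.641%, 2.11% and 3.92% of barcodes passed the 10% CD301b edge at D0, D5 and D19. The tag made up 2.25%, 2.71% and 3.19% of free antibody. Both were thus higher on each later day, and their part in the D19 share was not tested.

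**Figure D2:**
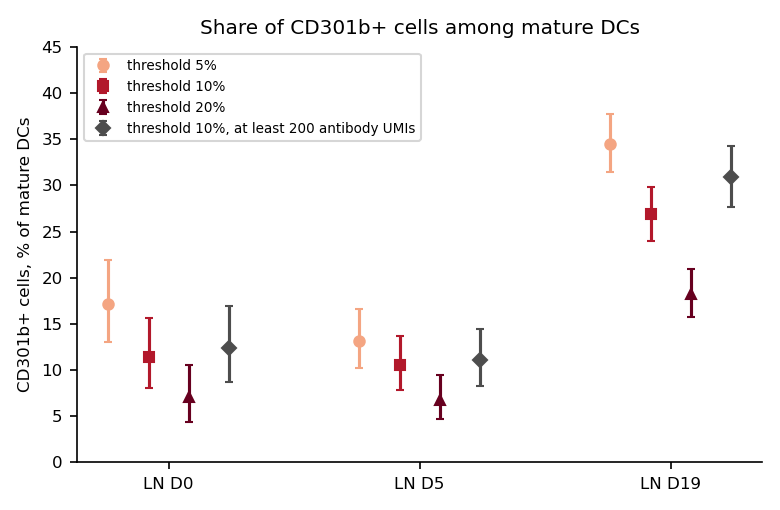
CD301b+ cells as a percentage of mature DC at D0, D5 and D19, with 95% Clopper-Pearson intervals, under the rule and under other edges. The rule gives 11.4%, 10.5% and 26.9%, and D19 is highest under each setting drawn.

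The RNA that encodes CD301b was nearly absent from cells that carried the protein. In CD301b+ mature DC the count of Mgl2 UMIs was 0 on D0 and on D5, and 1 on D19. No UMI in 34 cells allows a share of up to 8.82% of cells with 1, and none in 48 cells up to 6.25%. Neither-cells held 5, 8 and 6 Mgl2 UMIs. B cells, which should lack the gene, held 12, 5 and 6, and 11 of 2208 B cells had a UMI at D0 with a median depth of 3445 RNA UMIs against 8099 in CD301b+ cells. Itgam, which encodes CD11b, had 0, 0 and 6 UMIs in the CD301b+ cells, and Cd80 had 2, 2 and 13. A list of 36 further mature DC genes, none used by the rule, was present in full on each day and summed to 32582, 26905 and 31186 CPM (UMIs per 1000000 RNA UMIs of the summed cells).

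Marker lists of other cell types were read in the same cells before any comparison. The 18 monocyte and macrophage genes summed to 87.1, 232 and 126 CPM in CD301b+ cells at D0, D5 and D19, and to 903, 575 and 442 in neither-cells, with the defining gene Fcgr1 at 0 in the CD301b+ cells. The plasmacytoid DC list summed to 323, 817 and 290 CPM against 1434, 877 and 424. T cell genes summed to 504, 350 and 519 CPM against 575, 575 and 689, B cell genes to 185, 203 and 293 against 385, 267 and 107, and neutrophil genes to 3.63, 0 and 0 against 31.5, 11.2 and 2.56. The neither-cells thus held more monocyte, plasmacytoid, T cell and neutrophil RNA on all 3 days, and the part this plays in the comparison below was not tested. Of the CD301b+ cells, 3, 1 and 8 (8.82%, 2.08% and 3.25%) were among the barcodes with the highest Scrublet doublet scores. The same was true of 21, 16 and 26 neither-cells (10.6%, 4.49% and 5.18%), and none was removed.

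CD301b+ mature DC were first compared with mature DC below both shares, which asks what else goes with the CD301b protein among cells that passed the same Ccr7 and Fscn1 rule. The rule asks for 1 UMI of each, and levels above it were not equal, with Fscn1 at 1702 CPM in CD301b+ cells and 832 in neither-cells at D0 and the mature DC list at 32582 and 23447 CPM, a gap that was smaller at D19 (31186 and 29663). UMIs were summed per library and subset, and the 3 libraries served as replicates with the library as a block, so that a shift of a whole library drops out. All 9 sums, those of the XCR1+ cells included, stood in 1 fit. The spread is thus how far the differences among the 3 subsets varied from day to day, with each gene's value drawn toward those of other genes. Of 6682 genes tested, 21 passed (0.314%), of which 8 were higher (0.12%) and 13 lower (0.195%) in CD301b+ cells. The count was 9 without D0, 12 without D5, 134 without D19 and 1 (Lyz2) without the block, so it rests on the libraries and the block used. The balance depended on the tool, since DESeq2 called 23 higher and 5 lower, and 7 of the 21 genes were among them. The genes that rose included the chemokines Ccl17 and Cxcl1, the hyaluronan receptor Cd44 and the secreted chaperone Clu, and those that fell included Lyz2, Ms4a6c, Ms4a4c, Ccl4 and Ltb. By RefSeq (GRCm38.p6, the assembly of mm10) Ccl17 lies at chr8:94809380-94812038, Cd44 at chr2:102811141-102901669, Clu at chr14:65968483-65981548 and Lyz2 at chr10:117277541-117282272. Adjusted p-values are from edgeR's quasi-likelihood test with Benjamini-Hochberg adjustment, and levels are CPM of the summed cells before any further scaling. A log2 fold change is CD301b+ over the other subset. The value after ± is a standard error (SE) derived from the fit, as the fold change divided by the square root of the test's F statistic. It is not the spread of the 3 libraries' own differences.

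Ccl17 encodes a ligand of CCR4, the receptor of type 2 and regulatory T cells. It stood at 160, 413 and 693 CPM in CD301b+ cells at D0, D5 and D19 and at 54.1, 83.3 and 313 CPM in neither-cells. CD301b+ cells were higher on each day, although their D0 value lay below the neither-cells' D19 value. The log2 fold change was 1.81 ± 0.28 (SE from the fit, adjusted p = 0.0050). The single cell with the most Ccl17 UMIs held 9 of 44, 36 of 171 and 44 of 876, so no 1 cell carried the difference. The call was lost without D5 (adjusted p = 0.15) and without the library block, and over all alternatives the adjusted p ran from 4.2e-17 to 0.99. Ccl22, the other CCR4 ligand, had 617, 406 and 611 CPM against 239, 212 and 458 and did not pass (log2 0.99 ± 0.24, adjusted p = 0.091).

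Cxcl1, a ligand of the neutrophil receptor CXCR2, stood at 523, 74.9 and 188 CPM against 91.5, 4.59 and 68.2 (log2 2.46 ± 0.36, adjusted p = 0.0044). Few cells carried these UMIs, since 1 cell held 75 of 144 at D0, 26 of 31 at D5 and 47 of 237 at D19. Without D0 the call was lost (adjusted p = 0.10), and its adjusted p ran from 7.2e-25 to 0.99 over the alternatives. The related ligand Cxcl2 did not pass (log2 0.88 ± 0.20, adjusted p = 0.076).

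Cd44, a hyaluronan receptor of migrating leukocytes, had 468, 365 and 238 CPM in CD301b+ cells and 173, 183 and 164 CPM in neither-cells. The groups did not overlap, and 734 of the genes tested (11%) did not overlap either. The log2 fold change was 1.12 ± 0.19 (adjusted p = 0.0093), and the call was lost when each cell was thinned to 1000 UMIs (0.15), without D0 (0.10), without D5 (0.26) and without the block (0.68). Clu, a secreted chaperone, had 359, 570 and 625 CPM against 123, 189 and 449 (log2 1.30 ± 0.22, adjusted p = 0.0115). Crip1, a small LIM-domain protein, was among the most abundant of these RNAs, with 6307, 6984 and 9156 CPM against 2574, 3944 and 7231 (log2 0.93 ± 0.18, adjusted p = 0.0245). Cdkn1a, the cell cycle inhibitor p21, had 566, 346 and 415 CPM against 282, 194 and 294 (log2 0.90 ± 0.17, adjusted p = 0.0212). Mir155hg, the host transcript of a microRNA of immune activation, had 105, 94.3 and 138 CPM against 42.2, 34.8 and 89.1 (log2 1.19 ± 0.23, adjusted p = 0.0284). For Cd44, Clu, Crip1, Cdkn1a and Mir155hg the gap was smaller at D19 than at D0. Clu passed under 16 of 21 alternatives, Crip1 and Cdkn1a under 14 of 21 and Mir155hg under 13 of 20, with adjusted p-values up to 0.99. The last of the 8, the protease inhibitor Serpinb9b, had 29.0, 21.8 and 3.16 CPM against 6.54, 1.97 and 0.426 (adjusted p = 0.0245), all 8 of its D0 UMIs came from 1 cell, and it passed under 9 of 17 alternatives.

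**Figure D3:**
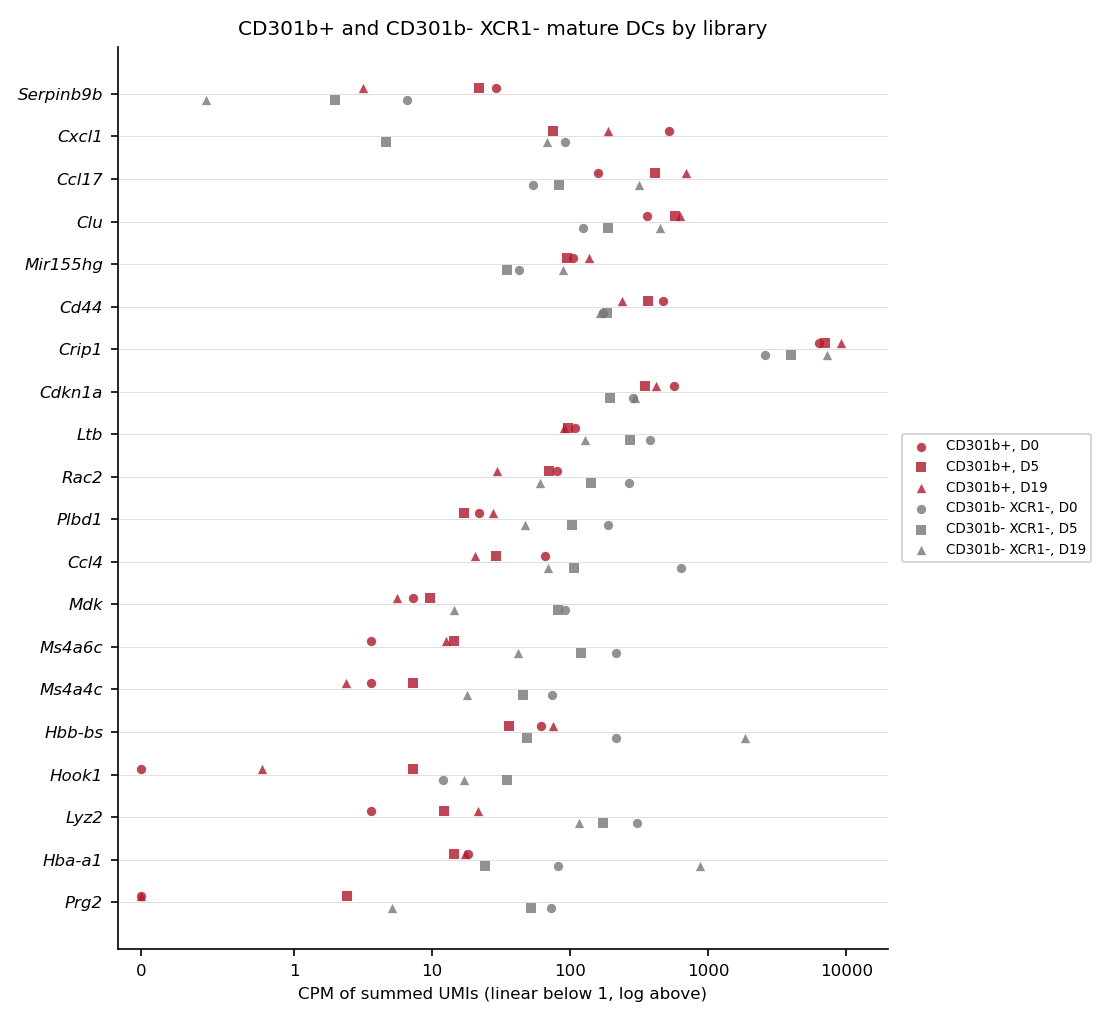
RNA level (CPM, linear below 1 and log above) of the 20 genes named by the rule in CD301b+ mature DC and in mature DC below both tag shares, 1 point per library (D0, D5, D19). Ccl17, Cxcl1, Cd44 and Clu lie higher in CD301b+ cells on each day, and Lyz2, Ms4a6c, Ms4a4c and Ltb lower.

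Lyz2 encodes the lysozyme of myeloid cells. It had 3.63, 12.1 and 21.4 CPM in CD301b+ cells against 304, 173 and 115 in neither-cells, with no overlap, and a log2 fold change of -3.20 ± 0.34 (adjusted p = 0.0002). Of the 20 named genes it was the only 1 that passed under every alternative that gave a value (19 alternatives, highest adjusted p = 0.0317). In the neither-cells 1 cell held 175 of 512, 214 of 527 and 94 of 270 Lyz2 UMIs. Ms4a6c, a tetraspanning membrane protein of monocytes and cDC2, had 3.63, 14.5 and 12.7 CPM against 215, 119 and 41.8 (log2 -2.72 ± 0.39, adjusted p = 0.0044). It lost the call with both edges at 5% (0.11) and without the block (0.28). Its relative Ms4a4c had 3.63, 7.25 and 2.37 CPM against 74.3, 45.2 and 17.9 (log2 -2.98 ± 0.42, adjusted p = 0.0044), and passed under 13 of 16 alternatives.

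Ccl4, an inflammatory chemokine, had 65.3, 29.0 and 20.6 CPM in CD301b+ cells against 629, 107 and 68.6 (log2 -2.30 ± 0.42, adjusted p = 0.0212). The growth factor Mdk had 7.26, 9.67 and 5.54 CPM against 90.9, 81.0 and 14.5 (log2 -2.42 ± 0.38, adjusted p = 0.0050). Ltb, which encodes lymphotoxin beta, had 109, 96.7 and 90.2 CPM against 380, 272 and 128 (log2 -1.07 ± 0.22, adjusted p = 0.0493), and passed under 6 of 21 alternatives. The small GTPase Rac2 had 79.8, 70.1 and 29.3 CPM against 267, 142 and 60.1 (log2 -1.12 ± 0.23, adjusted p = 0.0374). Each of these stood lower in the CD301b+ cells on all 3 days, but Ccl4 passed under 13 of 21 alternatives, Mdk under 10 of 13 and Rac2 under 10 of 20, with adjusted p-values up to 0.99. Prg2, the eosinophil major basic protein, had 1 UMI over the 3 libraries against 292, a ratio of 80.6 (counting interval 14.3 to 3193), and passed under 11 of 13 alternatives. Hook1 and Plbd1 also fell, by 3.12 and 1.73 on the log2 scale, and passed under 7 of 11 and 10 of 19 alternatives. The hemoglobin genes Hba-a1, Hba-a2 and Hbb-bs made up the rest, and 1 neither-cell at D19 held 1384 of 2032 Hba-a1 and 3328 of 4319 Hbb-bs UMIs.

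The lists describe where CD301b+ cells sat among mature DC, and their counts are to be read against the 0.12% higher and 0.195% lower over all genes, at which a list of this size would mostly have none. Of 36 mature DC genes, 1 (Ccl17) was higher and none lower, with a median log2 fold change of 0.38 against -0.01 over all genes tested and with 29 of 36 positive. Of 19 cDC2 genes tested none was higher and 3 were lower (Ltb, Lyz2 and Ms4a6c), with a median of -0.13. The transcription factors Zeb2 (log2 -0.05), Klf4 (0.05) and Irf4 (-0.13) did not pass, nor did Sirpa (-0.88). None of 12 cDC1 genes passed (median -0.64), none of 19 costimulation and contact genes (0.18), none of 22 NF-kB genes (0.15) and none of 14 cytokine genes (0.33). Icosl, the ligand of ICOS, had a log2 fold change of 0.10 ± 0.17 and Il12b, a subunit of IL-12 and IL-23, of 0.00 ± 0.28. None of 17 class II presentation genes passed (median -0.44), among them H2-Aa (-0.11 ± 0.14) and H2-DMb2 (-0.80 ± 0.18, adjusted p = 0.081), and none of 19 class I genes (0.28, with 17 positive). In the migration list of 37 genes Cd44 was the 1 that passed (median 0.28). Of 5 monocyte and macrophage genes tested, 1 was lower (Lyz2), with a median of -1.80.

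Promoters are shown for 2 of these chemokine and cytokine genes, because Cxcl1 rose and Ltb fell and both hold the letters of an NF-kB site. Promoter sequence was found in RefSeq (GRCm38.p6) for 15 of the 20 genes named in this comparison. The letters searched were GGG and TTTCC with any 2 bases between them for NF-kB, and TTC and GAA with any 4 bases between them for STAT6. Both strands of the 250 bases before the start were read, and 1.41% and 5.85% of 32851 promoters of that length hold the letters. None of the 15 held both patterns. NF-kB letters were in Cxcl1, with matches starting 89 and 71 bases before the start, and in Ltb, with 1 match starting 87 bases before it. Capitals mark the match, which is a description of letters and not a measured site.
Cxcl1 (chr5:90890995-90891244, plus strand): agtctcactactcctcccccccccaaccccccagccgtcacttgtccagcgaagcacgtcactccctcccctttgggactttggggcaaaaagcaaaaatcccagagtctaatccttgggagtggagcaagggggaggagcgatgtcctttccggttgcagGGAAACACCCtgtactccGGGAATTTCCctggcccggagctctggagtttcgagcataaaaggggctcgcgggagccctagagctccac
Ltb (chr17:35194257-35194506, plus strand): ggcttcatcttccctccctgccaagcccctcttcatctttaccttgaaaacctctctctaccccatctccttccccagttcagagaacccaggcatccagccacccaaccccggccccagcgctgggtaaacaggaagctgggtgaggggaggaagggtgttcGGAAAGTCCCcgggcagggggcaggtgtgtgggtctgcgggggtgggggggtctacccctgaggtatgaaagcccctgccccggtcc
STAT6 letters were in Ccl17 and Cd44, starting 154 and 211 bases before the start, and 30 bases around each are given. The Ccl17 window lies inside the gene's full extent (chr8:94809380-94812038).
Ccl17: cgagtgaccaTTCTCTGGAAagccacaaac
Cd44: cttcctcagcTTCCTGGGAAaaccagtctt

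Against XCR1+ mature DC, the comparison asks how the CD301b+ cells differ from mature cDC1. Of 6682 genes 570 passed (8.53%), 290 higher (4.34%) and 280 lower (4.19%) in CD301b+ cells, and 1259 (18.8%) did not overlap. Genes of cDC2 identity, chemokines, inflammatory cytokines and class II presentation were among the higher genes. Genes of cDC1 identity, class I presentation, Il12b and Epsti1 were among the lower ones. Of 36 mature DC genes 3 were higher and 7 lower, with a median log2 fold change of -0.09 against 0.03 over all genes. That list summed to 32582, 26905 and 31186 CPM in CD301b+ cells and to 35558, 35990 and 33981 in XCR1+ cells. XCR1+ cells had fewer RNA UMIs at D0, with a median of 4003 against 8099, and 8182.5 against 8030.5 at D5 and 4923 against 4689 at D19.

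Of 19 cDC2 genes tested, 7 were higher and 1 lower, with a median log2 fold change of 1.17 against 0.03 over all genes. This count and those of the lists that follow stand beside 4.34% higher and 4.19% lower over all genes. Zeb2, a repressor needed for cDC2 and monocyte fates, had 116, 147 and 112 CPM against 2.95, 14.7 and 6.92 (log2 3.85 ± 0.31, adjusted p = 6e-07). S100a4, a calcium-binding protein, had 1288, 2581 and 2396 CPM against 121, 927 and 397 (log2 2.26 ± 0.25). Klf4 (log2 1.62 ± 0.25) and Sirpa (2.69 ± 0.60, adjusted p = 0.0087) were also higher. None of these 4 genes passed against the neither-cells, which stood near the CD301b+ cells in Zeb2 and S100a4. Of 12 cDC1 genes 4 were lower and none higher (median -1.15). Clec9a, the receptor for dead-cell actin, fell by 3.37 on the log2 scale (adjusted p = 0.0031), and the adhesion molecule Cadm1 had 1 UMI against 28, a ratio of 33.9 (5.60 to 1386).

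Among chemokines 4 of 11 were higher and 1 lower, with a median of 1.89. Cxcl2, a neutrophil attractant, had 461, 184 and 172 CPM against 14.8, 22 and 20.8 (log2 3.49 ± 0.29, adjusted p = 6e-07), and 1 CD301b+ cell held 77 of the 127 UMIs at D0. Ccl17 was higher by 2.28 ± 0.33 (adjusted p = 0.00027) and Ccl3 by 3.56 ± 0.68, while Ccl5 was lower (-0.80 ± 0.16) and Ccl22 did not pass (0.39 ± 0.25). The cytokine list had 5 higher and 2 lower of 14. Il1b, the inflammasome cytokine, had 43.5, 36.3 and 98.9 CPM against 0, 2.45 and 17.3 (log2 2.81 ± 0.53, adjusted p = 0.0023), and its antagonist Il1rn had 29 UMIs against 1 (ratio 24.0, 3.97 to 979). Il12b had 65.3, 43.5 and 57.0 CPM against 399, 103 and 350 (log2 -2.38 ± 0.28, adjusted p = 2.8e-05). Il1b and Cxcl2 were thus higher and Il12b and Ccl5 lower in CD301b+ cells.

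Class II presentation had 9 of 17 genes higher and none lower (median 0.87). The class II chain H2-Aa had 5625, 5085 and 3163 CPM against 2904, 1735 and 1518 (log2 1.10 ± 0.15, adjusted p = 9.4e-05), and H2-DMb2, of the peptide-loading complex, was higher by 2.11 ± 0.27. Class I presentation went the other way, with 1 of 19 higher and 7 lower (median -0.48), the peptide transporter Tap1 at -0.93 ± 0.20. Of the costimulation and contact genes 3 of 19 were higher and 2 lower. Tnfsf9, the 4-1BB ligand, was higher by 1.78 ± 0.30 and Cd274, which encodes PD-L1, by 0.88 ± 0.22, while the Notch ligand Jag1 (-1.07 ± 0.32) and the TGF-beta-activating integrin Itgb8 (-1.98 ± 0.54) were lower. Icosl did not pass (-0.23 ± 0.18).

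Single genes of lipid handling and cell positioning differed in both directions. Fabp5, a fatty-acid binding protein, had 2399, 2678 and 2571 CPM against 183, 443 and 380 (log2 2.91 ± 0.20, adjusted p = 1.8e-07), and its relative Fabp4 had 165 UMIs over the 3 libraries against 2 (ratio 68.2, 18.6 to 568). Gpr183, the oxysterol receptor that positions DC in lymphoid tissue, had 385, 423 and 623 CPM against 79.8, 169 and 46.1 (log2 2.35 ± 0.32, adjusted p = 0.00014). The migration and cytoskeleton list had 2 of 37 genes higher, about the share over all genes, and 6 lower (median -0.19). In the cholesterol and lipid list, 1 of 26 genes was higher and 5 lower (median -0.42), the sterol enzyme Sqle at -1.78 ± 0.38. Epsti1 had 1913, 1813 and 1598 CPM against 6311, 5805 and 4296 (log2 -1.69 ± 0.15, adjusted p = 1.2e-06), and the tetraspanin Cd81 had 29.0, 19.3 and 46.7 CPM against 411, 279 and 299 (log2 -3.27 ± 0.25, adjusted p = 3.6e-07). Both were lower in CD301b+ cells on every day, with no overlap.

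Most of the genes with the largest differences were near 0 on one side. Adgre4, an adhesion receptor of myeloid cells, had 33 UMIs against 0 (at least 9.09-fold higher, against a floor of 3 counts over the group), and Cadm3 had 14 against 0 (at least 3.86-fold). Each such fold, here and below, is the observed level over that floor. It leaves out the counting error of the higher side and is not a confidence limit. Gda, guanine deaminase, had 95 UMIs against 1 (ratio 78.5, 13.8 to 3133). Zeb2os had 38 UMIs against 1, Akap5 28 and Trp53i11 24, and the calls of Cadm3, Akap5 and Trp53i11 held under 10 of 15, 8 of 10 and 6 of 10 alternatives. The signalling inhibitor Socs3 had 65.3, 60.4 and 23.7 CPM against 5.91, 2.45 and 1.15 (log2 3.94 ± 0.48, adjusted p = 4.5e-05), and the NADPH oxidase subunit Cybb had 50.8, 138 and 171 CPM against 0, 2.45 and 15 (log2 3.91 ± 0.47). All of these were higher in the CD301b+ cells than in the XCR1+ cells. None of them passed against the neither-cells, with log2 fold changes there from -0.63 for Cadm3 to 0.73 for Gda. On the lower side B3gnt5 had 0 UMIs against 20 (at least 8.07-fold lower), the interferon-induced Oasl1 1 against 45 (ratio 54.5, 9.29 to 2198), Fgfbp3 3 against 98 (39.5, 13.1 to 195) and Arhgap8 1 against 29. Bcl2l14 had 36.3, 50.8 and 29.3 CPM against 390, 252 and 448 (log2 -3.43), and 6430531B16Rik, Zdhhc14 and Wdr90 fell by 4.04, 3.99 and 3.76 on the log2 scale. None of these lower genes passed against the neither-cells either, with log2 fold changes there from -4.96 for B3gnt5 to -0.31 for Bcl2l14. Hba-a2 was also in this set, with 540 of 556 UMIs in 1 XCR1+ cell at D19.

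**Figure D4:**
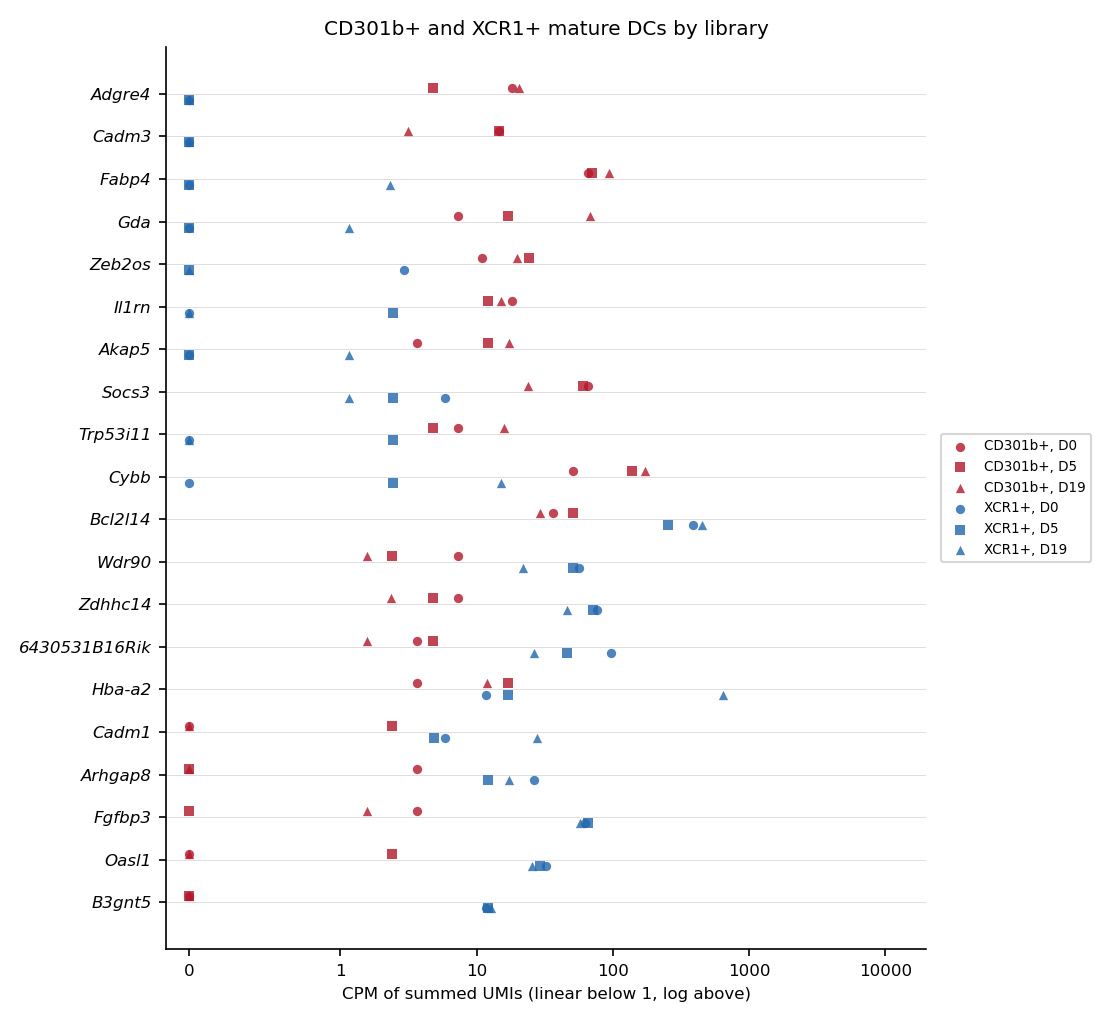
RNA level (CPM, linear below 1 and log above) of the 10 genes with the highest and the 10 with the lowest fold changes in CD301b+ and XCR1+ mature DC, 1 point per library (D0, D5, D19). Fabp4, Socs3 and Cybb lie higher in CD301b+ cells on each day, and Bcl2l14, Fgfbp3 and B3gnt5 lower.

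The dissociation list, genes that respond quickly to handling of tissue, had 11 of 18 genes higher and 1 lower than in XCR1+ cells (median 0.79), among them Egr1 (log2 2.51 ± 0.38) and Ier2 (2.11 ± 0.35). NK cell genes had 3 of 5 higher (median 2.13). The NK list summed to 356, 152 and 375 CPM in CD301b+ cells, 174, 4.89 and 40.4 in XCR1+ cells and 358, 233 and 298 in neither-cells. The part of these lists in the chemokine and cytokine differences was not tested.

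Across the days, CD301b+ mature DC were compared as 1 library each, so values carry exact 95% Poisson intervals that cover counting error only. Genes were read with at least 20 UMIs over the 2 days, and log2 differences were taken after adding 10 CPM to both levels. More than 2-fold higher at D19 than at D0 were 295 of 5594 genes (5.27%), and 206 (3.68%) were lower. At D5 against D0 109 of 3404 (3.2%) were higher and 105 (3.08%) lower, and at D19 against D5 170 of 5849 (2.91%) and 124 (2.12%). Values of the neither-cells of the same libraries stand beside most of them, since a shift of a whole library reaches both.

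Ccl17 was higher on each later day. Its level was 160 CPM (116 to 214) at D0, 413 (354 to 480) at D5 and 693 (648 to 741) at D19, with no overlap of the intervals. The log2 difference of D19 from D0 was 2.05, beside 2.33 in the neither-cells, where Ccl17 went from 54.1 to 313 CPM. Free RNA, read from barcodes with at most 100 UMIs, held 19, 22 and 137 CPM of Ccl17. Ccl22 had 617, 406 and 611 CPM and no such order, at a log2 difference of -0.01 beside 0.91. The 2 CCR4 ligands therefore differed across the days within the same cells.

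Other genes higher at D19 were Cd302, a C-type lectin, with 32.7, 48.3 and 216 CPM (log2 2.41, beside 2.43 in neither-cells), and the cold-inducible RNA-binding protein gene Cirbp, with 65.3, 150 and 351 CPM (2.26, beside 1.66). Mkrn1 had 36.3, 116 and 222 CPM (2.32, beside 0.79). Dkk2, a secreted Wnt antagonist, had 0 UMIs at D0 and 89 at D19 (at least 6.47-fold), and 10.7 and 46.5 CPM in the neither-cells. Asb8 and the transcription factor gene Mef2c each went from 0 to 38 UMIs (at least 2.76-fold). In the neither-cells Asb8 had 16.04 and 21.7 CPM at D0 and D19, and Mef2c went the opposite way, from 130 to 33.2 CPM. Gda had 2 UMIs at D0 and 86 at D19, a ratio of 9.37, and 9.51 and 31.5 CPM in the neither-cells. Among costimulation and contact genes 3 of 15 were more than 2-fold higher and none lower (median 0.39, beside 0.03 in neither-cells). Over all genes 5.27% were higher and 3.68% lower, with a median of 0.03. The 3 were Cd86, a CD28 ligand, and Sema7a, both at 1.02 and so just past the edge of 1, and the inhibitory ligand gene Cd200 (1.60, from 131 to 415 CPM, beside 1.13).

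The dissociation list had 6 of 17 genes more than 2-fold lower at D19 than at D0 and 1 higher, and some of the largest falls were heat-shock genes of this list. Hspa1a had 998, 242 and 9.49 CPM (log2 -5.69), and the neither-cells had 996, 156 and 5.11 (-6.06). Hspa1b went from 184 UMIs to 1, a ratio of 844 (150 to 33514), and from 553 to 1.70 CPM in the neither-cells. Dnajb1 went from 221 to 27.7 CPM, beside 140 to 19.2. The whole dissociation list summed to 14535, 7079 and 7354 CPM in CD301b+ cells and to 17212, 8741 and 7579 in neither-cells, so the early-response and heat-shock RNA moved with the library in both subsets. Gm42418, a locus that overlaps ribosomal RNA sequence, had 12640, 28590 and 1881 CPM in CD301b+ cells and 7950, 26591 and 1404 in neither-cells, and AY036118 moved with it (294, 1092 and 124 CPM, beside 399, 1121 and 106). Day and library cannot be told apart here.

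Some genes were lower at D19 in CD301b+ cells with little difference in the neither-cells of the same libraries. Lad1, which encodes ladinin, had 210 (160 to 272), 87.0 and 25.3 CPM (17.3 to 35.7), a log2 difference of -2.64 beside -0.31. Aldh1a2, the retinoic acid-producing enzyme of DC, had 221 (169 to 284), 65.3 and 42.7 CPM (32.1 to 55.7), -2.13 beside -0.04, and Stat4 had 138, 53.2 and 26.9 CPM, -2.00 beside -0.07. The XCR1+ cells of the same libraries were lower at D19 too for Lad1 (103, 93.0 and 41.5 CPM) and Aldh1a2 (408, 122 and 111), and had 97.5, 24.5 and 81.9 CPM of Stat4. The difference between the subsets in these day-to-day values was not tested. Il1b went the other way, with 1.02 in CD301b+ cells and -0.86 in neither-cells. The axonemal dynein gene Dnah2 had 83.5, 60.4 and 6.33 CPM, and 17.2, 22.6 and 29.0 in the neither-cells. Ccl3 (105, 24.2 and 9.49 CPM) and Tm4sf5 (145, 111 and 15.03) were also lower at D19, but they were lower in the neither-cells too, with 115, 11.8 and 27.7 CPM for Ccl3 and 120, 68.2 and 38.4 for Tm4sf5. At D0 1 CD301b+ cell held 20 of the 29 Ccl3 UMIs.

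Of the class II presentation list 3 of 15 genes were more than 2-fold lower at D19 and 1 higher, beside 3.68% lower and 5.27% higher over all genes (median -0.66, beside -1.02 in neither-cells and 0.03 over all genes in CD301b+ cells). Cd74, the class II chaperone, had a log2 difference of -1.21, H2-DMb2 of -1.79 and the class II transactivator Ciita of -1.58. The protease gene Ctsl had 1.47, but from only 1 UMI at D0, and it was lower at D19 than at D0 in the neither-cells. The list summed to 29258, 25776 and 15815 CPM in CD301b+ cells and to 36676, 32164 and 17014 in neither-cells. The summed level was thus lower at D19 in both subsets. Against the same shares over all genes, the class I list had 2 of 19 lower and none higher (median -0.43, beside 0.16). The mature DC list had 4 of 34 higher and 5 lower (median -0.23, beside 0.32).

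Among the largest differences of D5 from D0, beside the heat-shock genes, were genes that rested on few cells. Cxcl1 was lower by 2.65 on the log2 scale, beside 2.80 lower in the neither-cells. The plasmacytoid DC genes Siglech (2 UMIs at D0 and 47 at D5) and Cox6a2 (0 and 27) were higher. So were Ly6c2 (0 and 26), Plac8, Cd8b1, Pltp, Ctsl and 2610528A11Rik. The top cell held 21 of the 47 Siglech UMIs, 31 of 46 for Plac8 and 17 of 24 for Cd8b1. Siglech and Ly6c2 are both in a list of 6 genes of DC precursors. That list summed to 189, 418 and 171 CPM at D0, D5 and D19, and to 654, 473 and 273 in neither-cells. Cd8b1 turned to lower with both edges at 5%, and Plac8 after thinning. The plasmacytoid list summed to 817 CPM at D5 against 323 at D0 and 290 at D19, while in the neither-cells it was lower on each later day, at 1434, 877 and 424 CPM. The NK and T cell genes Xcl1, Nkg7 and Ms4a4b had 26, 20 and 22 UMIs at D0 and 0 at D5. From D5 to D19 Ms4a4b went from 0 to 76 UMIs, the protease gene Gzma from 0 to 67 and the pancreatic protease gene Ctrb1 from 0 to 69. In the neither-cells Ms4a4b had 89.7, 26.9 and 46.5 CPM, Gzma 0.594, 15.4 and 0 and Ctrb1 0, 0.656 and 50.3, and 1 CD301b+ cell at D19 held 35 of the 67 Gzma UMIs. Ctrb1 thus moved with the library in both subsets and Gzma did not, and the source of these genes in CD301b+ barcodes was not tested.

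Finally, levels were read over the CD301b share itself in mature DC with an XCR1 share under 10%, on both sides of the 10% edge. The genes were chosen by the comparison above, so the values are a description. Ccl17 at D0 was 24.6 CPM (16.8 to 34.7) in the 154 cells with a share under 2%, 115 in the 27 cells at 2 to 5%, 212 in the 18 at 5 to 10%, 106 in the 13 at 10 to 20% and 198 in the 20 at 20 to 50%. At D5 the same bins held 61.5, 143, 461, 298 and 514 CPM. At D19 they held 292, 316, 393, 640 and 640, with 857 CPM (757 to 966) in the 61 cells at 50% or more. Below the edge the level was already higher than under 2% by intervals that did not overlap, from 2 to 5% on at D0 (74.9 to 168) and D5 (106 to 190) and from 5 to 10% on at D19 (332 to 461, against 265 to 321 under 2%).

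Lyz2 went the opposite way over the same bins. At D0 it was 382 CPM under 2%, 17.6 at 2 to 5%, 70.8 at 5 to 10%, 9.6 at 10 to 20% and 0 at 20 to 50%. At D5 it was 198, 26.9, 0, 6.1 and 10.3, and at D19 144, 78.5, 50.7, 23.1, 28.4 and 6.4. Most of the Lyz2 RNA of mature DC thus lay in cells with almost no CD301b tag. Cd44 was 143, 247, 315, 337 and 532 CPM at D0 and 153, 183, 184, 254, 218 and 254 CPM at D19.

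**Figure D5:**
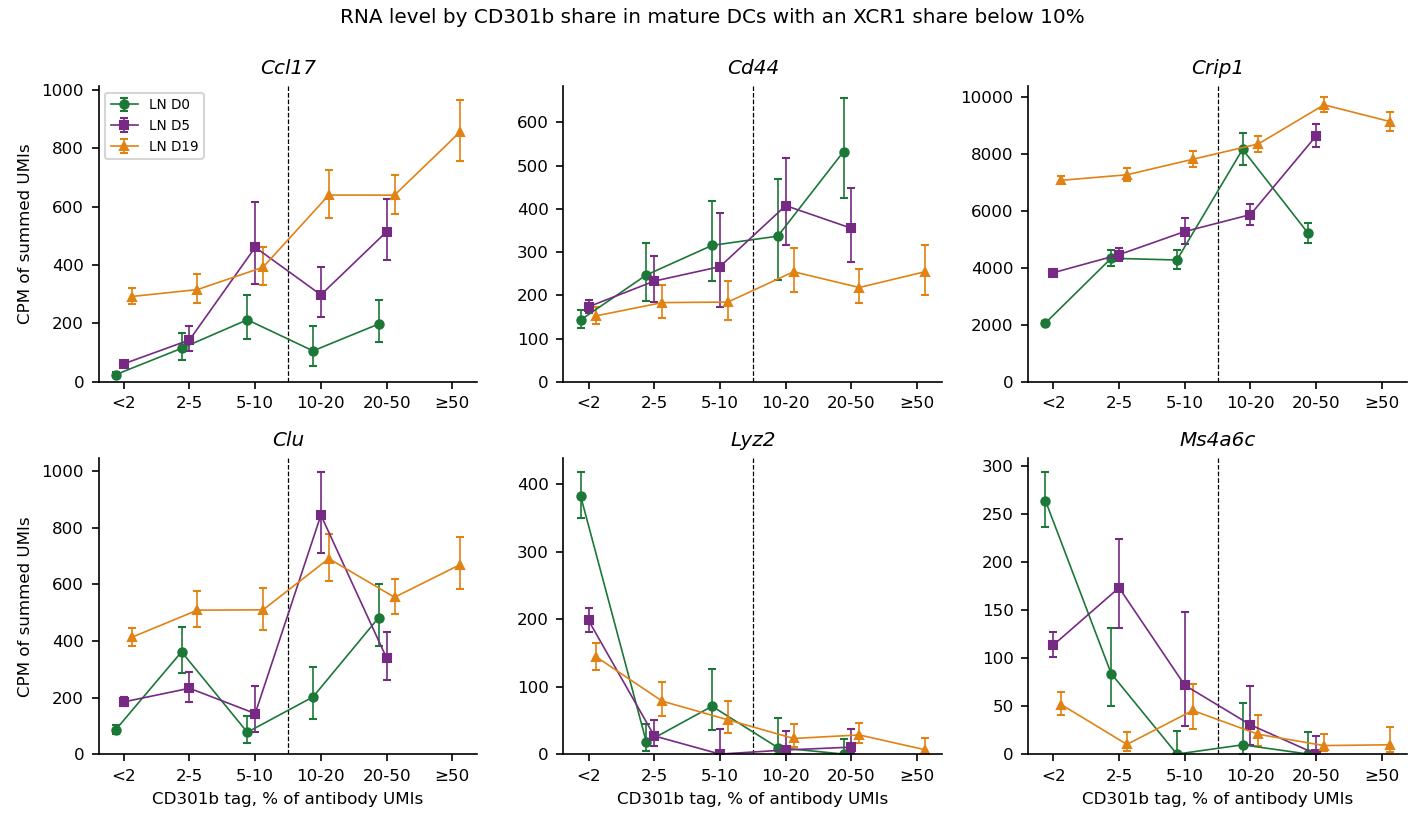
RNA level (CPM) of named genes in mature DC with an XCR1 share under 10%, binned by CD301b tag share (percent of antibody UMIs), for D0, D5 and D19, with exact 95% Poisson intervals and only bins of at least 10 cells, the dashed line marking the 10% edge. Ccl17 is lowest and Lyz2 highest in the cells with under 2% CD301b tag on each day.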

How the data were processed

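The counts were deposited by the authors as unfiltered gene-by-barcode matrices of UMIs, made with Cell Ranger 4 per the file headers and build mm10 per the submitters' processing notes, with 32285 genes and 11 antibody tags in each of 3 lymph node libraries. The 5 pools of γδ T cell libraries were used only for barcode counts. From the counts, cells were kept, called and summed in Python 3.11.15 (scanpy 1.11.5, numpy 2.4.6, scipy 1.17.1), with no doublets removed. Sums per library and subset (3 × 3) were tested with edgeR 4.0.16 in R 4.3.3: filterByExpr, TMM, library as a block (same-day subsets come from the same library) and the quasi-likelihood test, with Benjamini-Hochberg adjustment over all genes at 0.05. DESeq2 1.42.0 was an alternative. Levels in CPM are plain UMIs per 1000000 RNA UMIs. Tested on simulated counts of 6362 genes, 78% of 2-fold and 100% of 4-fold changes were recovered against the neither-cells, with 6 false calls, and 66% and 95% against XCR1+ cells, with 7. Apart from the changed genes, the simulated sums differed in depth only, with the same spread for all genes. They held no library effect and no change of the subset difference between days. Changed genes were drawn from those with enough counts in every sum. The rates thus hold for an easier setting than the data.

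The members and lists were chosen with earlier results of these data known. Genes named were the list members, the 15 (neither-cells) or 10 (XCR1+ cells) highest and lowest fold changes that passed with the same sign in 3 libraries, and the 8 largest rises and falls between days with at least 20 UMIs, leaving out mitochondrial and ribosomal protein genes. Hba-a2 in the first comparison, and examples outside these rules, were named after their values were seen. Sequences are from the deposited tag tables and RefSeq (GRCm38.p6, the assembly of mm10).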

Additional observations from a re-analysis of the deposited data

Results flagged for a closer look

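Outside mature DC, the CD301b tag made up at least 10% of antibody UMIs in 40 of 6244 barcodes at D0 (0.641%, 95% Clopper-Pearson interval 0.458 to 0.871), in 122 of 5792 at D5 (2.11%, 1.75 to 2.51) and in 229 of 5835 at D19 (3.92%, 3.44 to 4.45). These barcodes enter no comparison above, and the D5 and D19 shares lie above that of the untreated library. Their median antibody depth was 55.5, 71 and 55 UMIs, against 1123, 2554 and 1032 in CD301b+ mature DC. Barcodes with Cd79a and Cd79b, which mark B cells, and no Fscn1 passed the 10% share in 23 of 2208 cases at D0 (1.04%), 73 of 3297 at D5 (2.21%) and 106 of 1910 at D19 (5.55%). Those that passed had medians of 29, 43 and 19 antibody UMIs and of 3, 6 and 2 CD301b UMIs. Their shares thus rested on few molecules.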

How the results depend on the processing

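Against the neither-cells, 21 genes passed; the count was 10 with at least 200 antibody UMIs per cell, 156 with no filter on low counts, 94 with genes of at least 20 UMIs, 48 with only the 2 subsets in the fit and 1 (Lyz2) without the replicate block. Leaving out 1 library gave 9 (without D0) to 134 (without D19), with 12 without D5. Of alternatives chosen after seeing the data, leaving out the top cell of each gene gave 38, thinning cells to 1000 UMIs 6 and a CD11b share of at least 20% 11. DESeq2 gave 23 higher and 5 lower, sharing 7 of the 21. Against XCR1+ cells, 570 became 168 without the replicate block, 151 after thinning and 214 (without D5) to 447 (without D0) without 1 library, with 378 without D19. The share of CD301b+ cells was 17.2% at D0 and 34.5% at D19 with edges at 5%, 7.07%, 6.80% and 18.3% with both edges at 20% and also with members at 20% or more and neither-cells below 5%, and 30.9% at D19 with at least 200 antibody UMIs. Genes past 2-fold at D5 against D0 went from 214 to 348 with 1 CPM added, and to 49 with 50 CPM added and to 49 after thinning. At D19 against D5 they went from 294 to 737 and 36, and at D19 against D0 from 501 to 1009 and 78. The direction turned for Cd8b1 at D5 against D0 with both edges at 5% (-0.33), for Vps37b without the highest Scrublet scores (0.50) and for Plac8 after thinning (-0.35); the cause was not tested. Of the other values of named genes, 1135 kept direction and side, 132 no longer passed and 40 moved.

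With 34 and 48 CD301b+ cells at D0 and D5, a gene under a few UMIs was not measurable there. The libraries are single, and no number of mice is given in the sources used here. The p-values rest on how far the differences among the 3 subsets varied between 3 days rather than between animals. Antibody depth differed between subsets, so the tag shares are not equally precise. Counting intervals cover counting error only.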
